A study of Arabidopsis thaliana with 14 samples.

Results

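The genes described here were the type-A response regulators (A-ARRs) ARR5 (AT3G48100), ARR6 (AT5G62920), ARR7 (AT1G19050) and ARR15 (AT1G74890), 4 of the 37899 nuclear genes and pseudogenes of the annotation. They were chosen by locus, by a rule that uses no measured value, although earlier results of these data were known. In every deposited list of binding peaks, a peak was assigned to one of them when its summit, the base of highest enrichment, lay inside the gene or within 1.5 kb of it. The strongest such peak, by the authors' −log10 p-value, stood for the gene.

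The study mapped where type-B response regulators (B-ARRs) bind in Arabidopsis by chromatin immunoprecipitation and sequencing (ChIP-seq), with and without added cytokinin, and gave 10 peak lists, 1 for each condition. Whole seedlings of 3 days were used. Except for the truncated ARR1∆DDK, described below, they carried a B-ARR with the yellow fluorescent protein Ypet at its C-terminus, put by recombineering into a large genomic clone. Chromatin was precipitated with an antibody to GFP. Of the 14 records, 10 had a peak list used here, 2 were control libraries (input and IgG, both of the ARR1 line with 6-BA) and 2 were RNA-seq records, not used here. For ARR1 the lists were ARR1_m (long days, DMSO as mock, 4 h), an etiolated mock list (grown without light, DMSO, 4 h), ARR1_BA (long days, 10 µM of the cytokinin 6-benzylaminopurine, 6-BA, 4 h) and ARR1_BA3d (long days, 10 µM 6-BA, 72 h). ARR10_m and ARR10_BA were the long-day mock and 4 h 6-BA lists of ARR10, and the ARR14 list came from long-day seedlings kept 72 h on 10 µM 6-BA. The ARR1∆DDK list came from long-day seedlings given 10 µM dexamethasone (Dex) for 4 h. ARR1∆DDK lacks the receiver domain of ARR1 and is fused to the glucocorticoid receptor for induction by Dex. By the study's methods it was cloned into a transformation vector with a yellow fluorescent protein at its N-terminus. It was driven by the strong viral 35S promoter, unlike the full-length factors with Ypet. This list was recognised by its title and treatment, since its line label names the full-length ARR1 line. A pair of long-day ARR12 lists is labelled mock and 4 h of 10 µM 6-BA. They are called by their labels throughout, because the gene columns in the study's supplementary data match them the other way round, and the difference between them is given both ways. The tagged ARR1, ARR10 and ARR12 lines were made in the wild-type accession Col-0, so they also carry the untagged factor, and the labels name a single line for each full-length factor.

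Cytokinin is sensed by histidine kinases (AHKs) in membranes, which pass phosphate through AHP proteins to response regulators in the nucleus. B-ARRs have a receiver domain and a GARP-type DNA-binding domain, and switch on cytokinin-responsive genes once phosphorylated. A-ARRs have a receiver domain but no DNA-binding domain, are themselves rapidly induced by cytokinin, and dampen the signal, so they close a negative feedback loop. ARR5 and ARR6 are close paralogs, as are ARR7 and ARR15. All of them are repressed by the stem-cell factor WUSCHEL in the shoot apex, where ARR7 and ARR15 are also known as points at which auxin meets cytokinin signalling.

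At ARR5, ARR7 and ARR15 the binding summits of different B-ARRs fell on a short stretch next to the gene start, and at ARR6 they did so in part of the lists. The B-ARR consensus used by the study is AGATHY, which is AGAT, then any base but G, then a pyrimidine (C or T). Its 6 spellings were searched on both strands. In the sequences below, taken from the RefSeq TAIR10.1 reference and written along the coding strand, capitals mark such matches in either orientation. The first set shows 30 bases of each 5′ untranslated region, chosen close to the typical summit to hold the most matches. The summits of ARR5 and ARR15 lay in or near these stretches in nearly every list, whereas most summits of ARR7 lay upstream of its stretch. The stretches lie at chr3:17760885-17760914 (ARR5), chr5:25254178-25254207 (ARR6), chr1:6579283-6579312 (ARR7) and chr1:28132918-28132947 (ARR15), all on the minus strand.
ARR5: AGATATgcaaAGATCTctcagaatcctctc
ARR6: ATATCTttctcttcctttttcttccaaatc
ARR7: tttaAGATTTtgtttcctcttcaaAGATCT
ARR15: aacaacatcaAGATCCgatcctccAGATTC

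The ARR5, ARR7 and ARR15 stretches each hold 2 matches and the ARR6 stretch holds 1. Since the stretches were chosen for their matches, these counts are no result. The paralogs ARR7 and ARR15 differ in the 250 bases before their start, chr1:6579315-6579564 for ARR7 and chr1:28133026-28133275 for ARR15, which are shown because most summits at ARR7 fell in the last part of this stretch.
ARR7: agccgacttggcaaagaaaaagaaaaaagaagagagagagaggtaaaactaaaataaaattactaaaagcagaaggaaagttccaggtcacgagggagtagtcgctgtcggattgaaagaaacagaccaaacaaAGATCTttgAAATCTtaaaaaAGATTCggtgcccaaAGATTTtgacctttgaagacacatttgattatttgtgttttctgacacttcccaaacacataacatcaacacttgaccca
ARR15: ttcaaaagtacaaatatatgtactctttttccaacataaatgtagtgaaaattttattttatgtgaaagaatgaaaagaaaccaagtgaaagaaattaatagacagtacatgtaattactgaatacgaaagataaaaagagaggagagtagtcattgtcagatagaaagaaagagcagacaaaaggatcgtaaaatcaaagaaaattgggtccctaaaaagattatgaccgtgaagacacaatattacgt

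ARR7 held 4 matches here, a number reached by 3.60% of the 27443 protein-coding promoters of that length, and ARR15 held 0. ARR6 held 3 (reached by 11.4% of promoters) and ARR5 held 0, against a median of 1 over all promoters. For ARR5 and ARR6, part of the summits lay far inside the gene, in intron 4. The 201 bases around the median of those summits are shown, chr3:17759399-17759599 for ARR5 and chr5:25253144-25253344 for ARR6, both minus strand.
ARR5 intron 4: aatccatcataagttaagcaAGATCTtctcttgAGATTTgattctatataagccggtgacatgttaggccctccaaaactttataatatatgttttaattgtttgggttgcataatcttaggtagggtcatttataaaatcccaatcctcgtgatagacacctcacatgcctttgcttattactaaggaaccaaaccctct
ARR6 intron 4: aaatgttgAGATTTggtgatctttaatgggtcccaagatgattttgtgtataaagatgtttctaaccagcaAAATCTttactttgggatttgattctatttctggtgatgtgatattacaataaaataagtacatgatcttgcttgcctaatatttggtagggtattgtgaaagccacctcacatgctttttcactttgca

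Each window has 2 matches. The longest run of letters they share is 13 bases, gatttgattctat, whose first bases overlap a match in ARR5 but not in ARR6. Intron 4 is also where the paralog pairs differ in structure. It measures 750 bp in ARR5 and 603 bp in ARR6, but 97 bp in ARR7 and 102 bp in ARR15. A match is a description of the letters and no proof of a binding site.

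Each list holds 1 combined value per peak and no replicates, so differences between lists were described and not tested, and the sequencing depth behind a value is unknown. The lists held from 1513 peaks (etiolated) to 11499 peaks (ARR10_m), and their lowest −log10 p ran from 4.88 (ARR1_m) to 31.2 (ARR1∆DDK). ARR1_m was the weakest list, with 73 of its 3324 peaks at a −log10 p of at least 16, the study's cutoff for a target. It also falls short of the study's own column of ARR1_m targets, which holds genes that this list does not reach at that cutoff, so the ARR1_m calls and comparisons describe the list as deposited. The part these differences between lists have in the values below was not tested. Whole seedlings mix cell types, so binding in more cells and stronger binding per cell cannot be told apart.

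A gene was called a target in a list when its strongest peak reached that cutoff. All 4 genes were targets in ARR1_BA, where 17.5% of all genes were called, and in ARR1_BA3d, where 34.3% were. They were also all targets in ARR1∆DDK (12.4% of genes), ARR10_BA (21.4%), the ARR14 list (37.9%), and both ARR12 lists, with 21.1% of genes called in the one labelled mock and 2.87% in the one labelled 6-BA. In ARR10_m 3 of the 4 were called against 16.3% of genes, in the etiolated list 3 against 5.65%, and in ARR1_m only ARR7 was called, against 0.361%. When any deposited peak was counted, all 4 genes had one in ARR10_m (39.6% of all genes did), ARR1_BA (28.2%), ARR1_BA3d (40.2%), ARR10_BA (30.2%) and the ARR12 lists labelled mock (23.2%) and 6-BA (13.7%), and 3 had one in ARR1_m (13.1%). The gene missing from the calls in ARR10_m and in the etiolated list was ARR15. Of the other type-A regulators, ARR4 was called in 10 of the 10 lists, ARR9 in 9, ARR3, ARR8 and ARR16 in 7 each and ARR17 in 6. By the same count ARR7 was a target in 10 lists, ARR5 and ARR6 in 9 and ARR15 in 7. No share of all genes called in as many lists is given, so whether these counts are unusual was not tested.

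**Figure D1:**
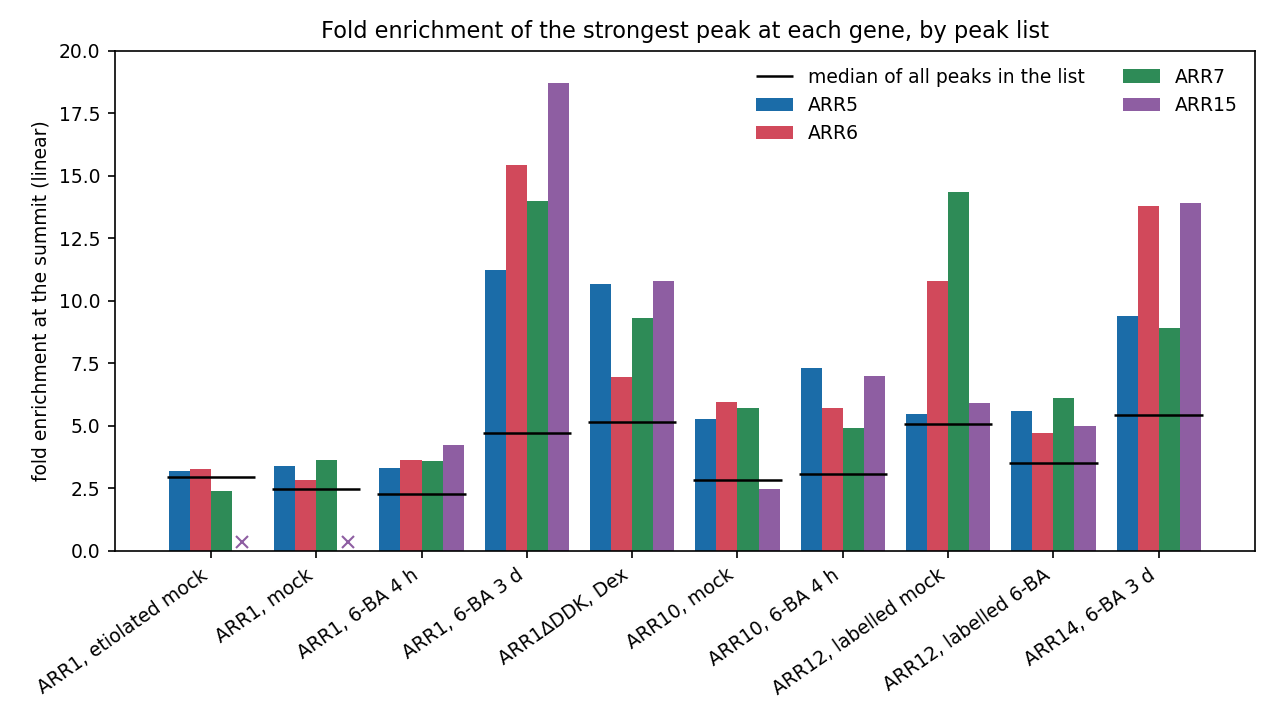
Fold enrichment over input of the strongest peak (y axis, linear ratio) at ARR5, ARR6, ARR7 and ARR15 (coloured bars) in each of the 10 peak lists (x axis). Horizontal lines give the median of all peaks in the list and crosses mark a gene with no peak. The highest bar is ARR15 in ARR1_BA3d (18.71), and ARR15 has no bar in the etiolated and ARR1_m lists.

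ARR7 had a peak in every list, always at the same place. Its fold enrichment over input was 2.39 in the etiolated list, 3.63 in ARR1_m, 3.61 in ARR1_BA, 13.98 in ARR1_BA3d and 9.32 in ARR1∆DDK. It was 5.7 in ARR10_m, 4.91 in ARR10_BA and 8.93 in the ARR14 list, and 14.34 and 6.1 in the ARR12 lists labelled mock and 6-BA. Because the scale of enrichment differs between lists, the place within the list is also given as a percentile from the top by −log10 p. ARR7 stood in the top 1% of 7 lists and the top 5% of 9, at 0.0642% in ARR1_BA3d (7th of 10904 peaks) and 0.0833% in the list labelled ARR12 mock (5th of 6005). The exception was the etiolated list, where its percentile was 61.8. Ranked by fold enrichment, it was in the top 1% of 2 lists and the top 5% of 6. The summits lay between 53 bp upstream and 54 bp inside the gene start (chr1:6577833-6579314 for the gene), a spread of 107 bp over the 10 lists. Among the 4 genes ARR7 also had the densest cluster of AGATHY matches. Within 100 bp of the summit there were 7 or 8 in 8 lists, a number reached by 0.0183% to 0.0807% of all summits in those lists. The windows of the ARR12 lists labelled mock and 6-BA, centred 54 bp inside and 1 bp before the start, had 4 and 6.

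ARR15, the paralog of ARR7, had the widest range of values among the 4 genes. It had no peak in the etiolated list or in ARR1_m. Its fold enrichment was 2.46 in ARR10_m, the lowest of its values, 4.25 in ARR1_BA, 18.71 in ARR1_BA3d, 10.78 in ARR1∆DDK, 7.0 in ARR10_BA and 13.93 in the ARR14 list. The ARR12 lists labelled mock and 6-BA gave 5.93 and 5.0. Its rank covered almost the whole scale, from 79.7% in ARR10_m to 0.0151% in the ARR14 list, where it shared the highest −log10 p with 1 other peak, that of ARR4. In ARR1_BA3d it was 3rd of 10904 peaks (0.0275%). In the ARR14 list 75 peaks came within 5% of the highest fold enrichment, against 1 to 3 peaks in each of the others, so places at its top were separated by small differences. The summits lay 50 to 126 bp inside the gene start in 8 of 8 lists with a peak, in the 5′ untranslated region (gene at chr1:28131447-28133025). Here 5 or 6 AGATHY matches lay within 100 bp of the summit, which 0.117% to 0.752% of all summits matched or passed. The matches were thus inside the transcribed region at ARR15, while at ARR7 they lay on both sides of the start. Downstream summits, 1755 to 1834 bp from the start, were also seen in ARR1_BA, ARR10_m and ARR10_BA, with folds of 2.13, 2.31 and 4.01. The summit of the main peak also lay within 1.5 kb of OTP43 (AT1G74900), a pentatricopeptide repeat protein gene that starts on the other strand, in all 8 lists, so the peak cannot be given to ARR15 alone by distance.

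ARR5 had a summit next to its start in every list, though not always as the strongest peak. Its fold enrichment was 3.19 in the etiolated list, 3.41 in ARR1_m, 3.33 in ARR1_BA, 11.24 in ARR1_BA3d and 10.67 in ARR1∆DDK. It was 5.27 in ARR10_m, 7.3 in ARR10_BA, 5.47 and 5.59 in the ARR12 lists labelled mock and 6-BA, and 9.39 in the ARR14 list. ARR5 ranked highest in ARR10_BA, where it was 3rd of 8680 peaks, and 7th of 2916 in ARR1∆DDK. It was lowest in the list labelled ARR12 mock, at 19.5%. In 9 of the lists the strongest summit lay 18 to 126 bp inside the start, in the 5′ untranslated region (gene at chr3:17758427-17760950). In ARR1_m the strongest summit lay in intron 4, 1459 bp from the start, with a second peak at 112 bp and a fold of 2.19. The list labelled ARR12 mock had an intron 4 summit too, 16 bp away from the one in ARR1_m, with a fold of 5.6 next to 5.47 at the start. With 2 matches within 100 bp of the strongest summit in every list, ARR5 was unremarkable in AGATHY number, since 25.1% to 50.9% of all summits had as many. The start-site summit also fell within 1.5 kb of the long noncoding RNA AT3G07865 in all 10 lists, and the intron 4 summit within 1.5 kb of EDS1 (AT3G48090), an immune regulator, in both lists that had one. Downstream summits, 2711 to 3107 bp from the start and also in range of EDS1, were present in ARR1∆DDK (fold 5.26) and in the ARR12 lists labelled mock (5.38) and 6-BA (3.01).

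At ARR6 the strongest summit was found at 2 places. Its fold enrichment was 3.29 in the etiolated list, 2.83 in ARR1_m, 3.63 in ARR1_BA, 15.44 in ARR1_BA3d and 6.96 in ARR1∆DDK. It was 5.94 in ARR10_m, 5.71 in ARR10_BA, 10.79 and 4.7 in the ARR12 lists labelled mock and 6-BA, and 13.81 in the ARR14 list. Percentiles ranged from 0.0908 in the ARR14 list to 21.1 in ARR1_m, with 20.6 in both the etiolated and the ARR1∆DDK lists. In the etiolated, ARR1_BA and ARR1∆DDK lists the strongest summit lay 100 to 185 bp inside the start (gene at chr5:25252007-25254318). In the other 7 lists it lay 1041 to 1135 bp inside, in intron 4, and in ARR1_m the peaks at both places had the same fold and −log10 p. Introns held 1.65% to 6.23% of all summits of a list, so this position was uncommon among B-ARR peaks as a whole. The summit marks only the highest point of a wide peak. In 8 lists 1 peak spanned both places at ARR6, with separate peaks in the other 2. At ARR5 1 peak spanned the start and intron 4 in 6 lists, although the summit lay at the start. ARR6 had 1 to 4 AGATHY matches within 100 bp of its strongest summit, and 4 only in the etiolated list, where 3.37% of summits had as many. The intron 4 summit also lay within 1.5 kb of AT5G62910, which runs towards ARR6 and overlaps its 3′ end, in 7 lists. In the 3 lists with the strongest summit at the start, it lay within 1.5 kb of AT5G62930, which starts on the other strand. Distance therefore cannot give that summit to ARR6 alone. Weaker summits lay 3572 to 3787 bp from the start, downstream of the gene, in ARR1_BA, ARR1_BA3d, ARR10_BA and the ARR14 list, and upstream in ARR10_m.

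**Figure D2:**
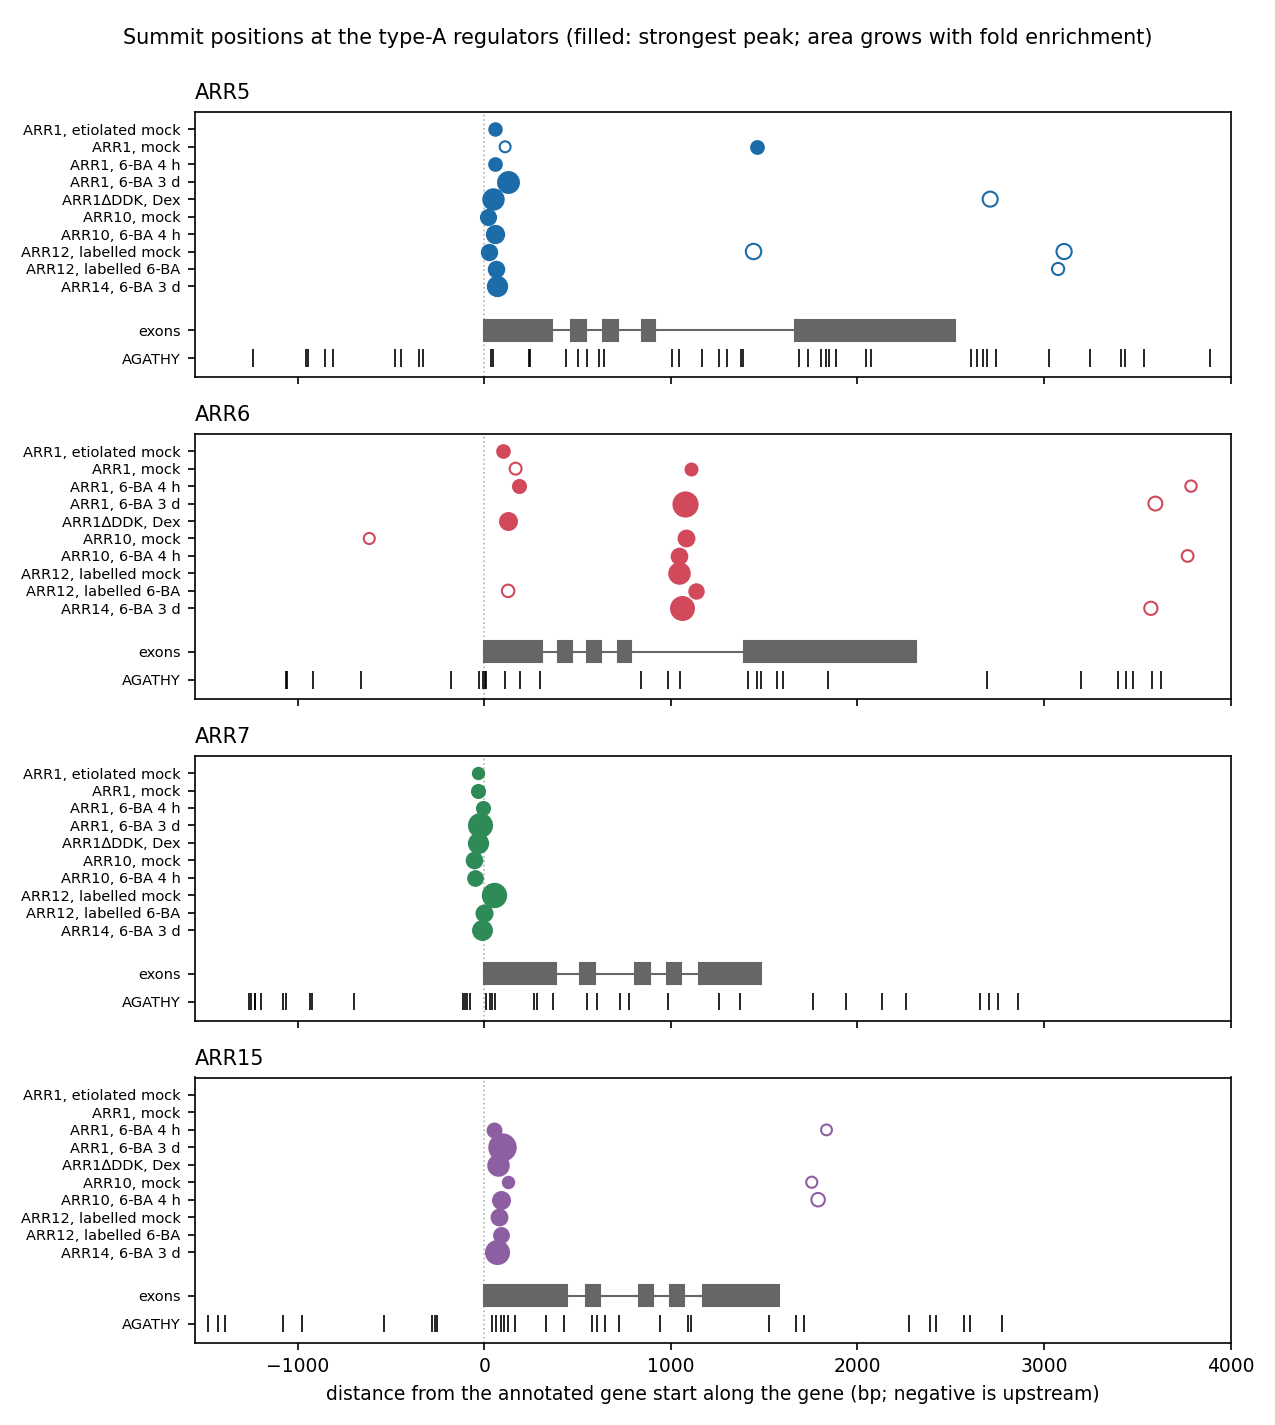
Summits at the 4 genes (1 panel each) by distance from the annotated gene start in bp (x axis) and peak list (y axis). Filled points are the strongest peak in the list and open points other peaks; point area grows with fold enrichment, grey boxes are exons and ticks are AGATHY matches. Points line up at the start for ARR7 and ARR15, whereas 7 of the 10 filled points of ARR6 lie over intron 4.

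Peak widths differed by gene and list. The median over lists was 3304 bp at ARR5, 2806 bp at ARR6, 1917 bp at ARR7 and 1200 bp at ARR15. The ARR5 peak was widest in ARR10_BA (5793 bp) and that of ARR7 in ARR1_BA3d (5706 bp), against list medians of 998 and 986 bp. Width did not follow fold enrichment in every list, as the ARR7 peak of the list labelled ARR12 mock, at a fold of 14.34, was 903 bp wide.

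**Figure D3:**
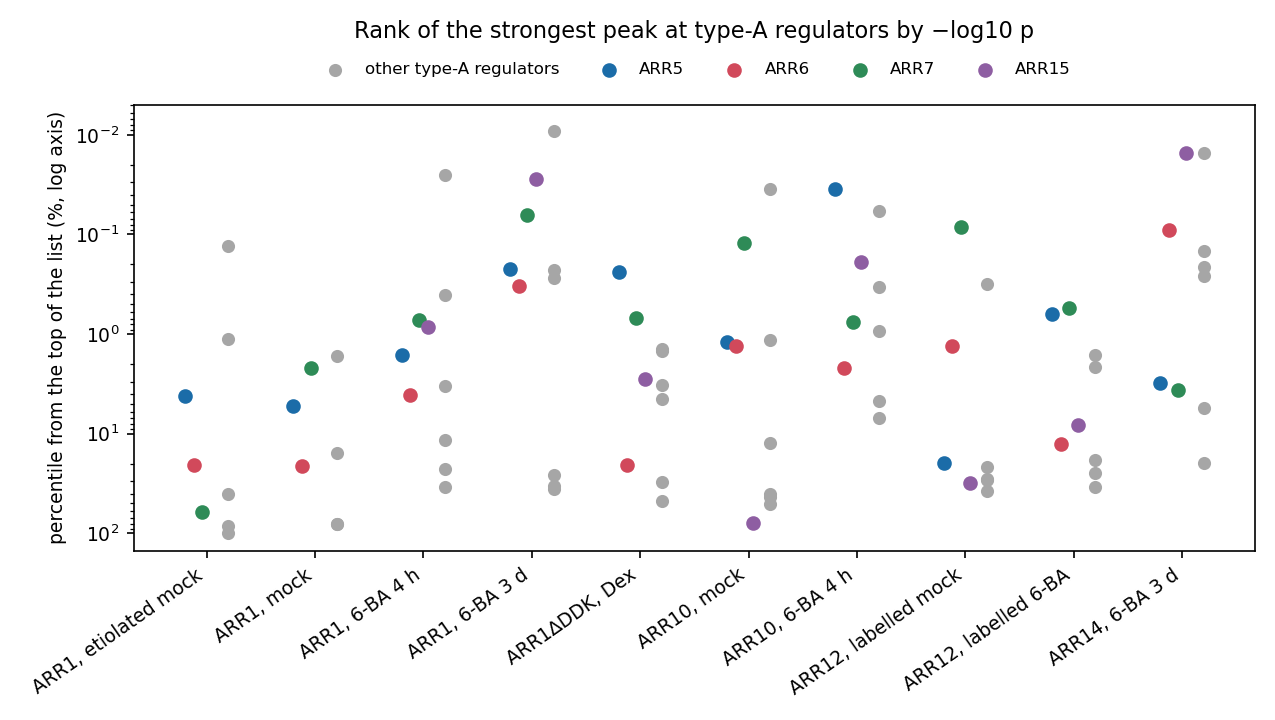
Percentile of the strongest peak from the top of its list by −log10 p (y axis, log scale, highest ranks at the top) for ARR5, ARR6, ARR7 and ARR15 (coloured) and the 6 other type-A regulators (grey) in each of the 10 lists (x axis). Genes without a peak are not drawn. In ARR1_BA3d the coloured points lie between 0.0275% and 0.330%, and in ARR10_m ARR15 lies at 79.7%, below the other points of that list.

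By list, the 4 genes stood highest in ARR1_BA3d, where all of them were in the top 1% and their median percentile was 0.142, against a median of 46.3 for the 15246 genes with a peak. Ranked by fold enrichment, ARR5 was at 2.48% there and the other 3 remained in the top 1%. The median was 0.475 in ARR10_BA, 1.24 in ARR1_BA, 1.25 in ARR10_m, 1.60 in the ARR14 list and 1.76 in ARR1∆DDK. In the ARR12 lists it was 10.4 (labelled mock) and 4.40 (labelled 6-BA), and over the 3 genes with a peak it was 5.23 in ARR1_m and 20.6 in the etiolated list. Over all genes with a peak the median was 44.8 or more in every list. The 6 other type-A regulators had medians of 13.2 in ARR1_BA3d, 7.42 in ARR1_BA and 0.922 in ARR10_BA (5 genes), but 0.237 in the ARR14 list. ARR4 was above all 4 genes in the etiolated, ARR1_m, ARR1_BA, ARR1_BA3d and ARR10_m lists, and level with ARR15 in the ARR14 list. In ARR1∆DDK no other type-A regulator stood above ARR5 or ARR7 by −log10 p. By fold enrichment, however, ARR4 (11.74) and ARR9 (11.69) were above all 4 genes there.

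To compare lists, the fold enrichment of a gene in one list was divided by that in the other, and this ratio by the median ratio of all genes with a peak in both. A gene was called higher at 1.5 times that median or more and lower at 1/1.5 of it or less.

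Between ARR1_m and ARR1_BA, which ask what 4 h of cytokinin does to ARR1 binding, none of the 3 genes with a peak in both passed 1.5 times the median ratio, which was 1 over all genes, where 2.63% of 3040 genes were higher and 2.93% lower. The ratios over the median were 0.972 for ARR5, 1.28 for ARR6 and 0.990 for ARR7. ARR15 had a peak only with 6-BA. By the ratio of −log10 p instead, ARR5 and ARR6 were higher (log2 over the median 0.6 and 0.83), and ARR7 was not (0.27). The values of ARR5 and ARR6 compare summits at different places. With summits at the start alone, the log2 ratio of fold enrichment over the median was 0.47 for ARR5.

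From ARR1_BA to ARR1_BA3d, 3 of the 4 genes were higher, where 6.03% of 9405 genes were higher and 6.15% lower. The median ratio was 2.44 over all genes, and the ratios were 1.81 times this median at ARR15, 1.74 times at ARR6 and 1.59 times at ARR7. ARR5 was at 1.38 times. Only 95 of the 9405 genes had a higher ratio than ARR15. The ARR6 value sets a start summit against an intron 4 summit. The highest fold of any peak went from 5.24 to 19.44, and other strongly bound type-A regulators rose too. ARR4 went from 5.06 to 19.44, ARR9 from 4.36 to 15.87 and ARR16 from 3.72 to 15.65. ARR3 (3.11 to 5.61), ARR8 (2.52 to 5.38) and ARR17 (2.75 to 5.75) rose less. Whether strong peaks in general gained more than the median was not tested.

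ARR15 also stood out in ARR10. From ARR10_m to ARR10_BA it went from 2.46 to 7.0, a ratio of 2.91 times the median of 0.978, and 0 of the 10302 genes compared had a higher one. The other 3 genes were not called, with 1.42 at ARR5, 0.983 at ARR6 and 0.881 at ARR7. In this comparison 2.50% of genes were higher and 1.29% lower. The ARR15 peak of ARR10_m had a −log10 p of 8.51, under the cutoff, so the call does not exist among peaks of at least 16 in both lists.

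In the ARR12 lists, taken from the label mock to the label 6-BA, ARR5 was higher at 1.57 times the median ratio of 0.653 (4.68% of 3501 genes were higher) and ARR7 was lower at 0.652 times (7.54% lower). ARR6 at 0.668 was just short of the lower bound, and ARR15 was at 1.29. With the lists exchanged the directions turn over, to a log2 ratio over the median of -0.65 for ARR5, 0.58 for ARR6, 0.62 for ARR7 and -0.37 for ARR15.

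The etiolated and long-day mock lists of ARR1 ask about light. From ARR1_m to the etiolated list ARR7 was lower, at 0.590 times the median ratio of 1.12, where 1.95% of 1079 genes were lower and 1.11% higher. ARR5 was at 0.838 and ARR6 at 1.04, both between different summits.

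The remaining comparisons set factors or forms side by side. From ARR1_BA to ARR1∆DDK only ARR5 was higher, just at the bound of 1.5 times the median ratio of 2.13 (6.59% of 3763 genes were higher and 5.82% lower), with ARR7 at 1.21, ARR15 at 1.19 and ARR6 at 0.900. With summits at the start alone ARR5 fell short of the bound (log2 0.54). From ARR1_BA3d to the ARR14 list, both after 72 h of 6-BA, all 4 genes were under the median ratio of 1.10. The highest fold of any peak was 13.93 in the ARR14 list, against 19.44 in ARR1_BA3d. ARR15 (18.71 in ARR1_BA3d), ARR6 (15.44) and ARR7 (13.98) could therefore not reach the median ratio. In the ARR14 list ARR15 (13.93) and ARR6 (13.81) were at or near the highest fold, but ARR7 was at 8.93. Whether ARR14 bound any of them more weakly was not tested. ARR7 was called lower at 0.580 (5.81% of 11879 genes were lower and 7.69% higher), and ARR15 at 0.677, ARR5 at 0.759 and ARR6 at 0.813 were not called. From ARR1_BA to ARR10_BA ARR5 was higher at 1.59 times the median ratio of 1.38, where 0.785% of 9043 genes were higher and 0.719% lower, and 36 genes had a higher ratio. ARR6, ARR7 and ARR15 were at 1.14, 0.986 and 1.19. Several of these comparisons share a list (ARR1_m, ARR1_BA or ARR1_BA3d), so their values are not independent of each other.

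**Figure D4:**
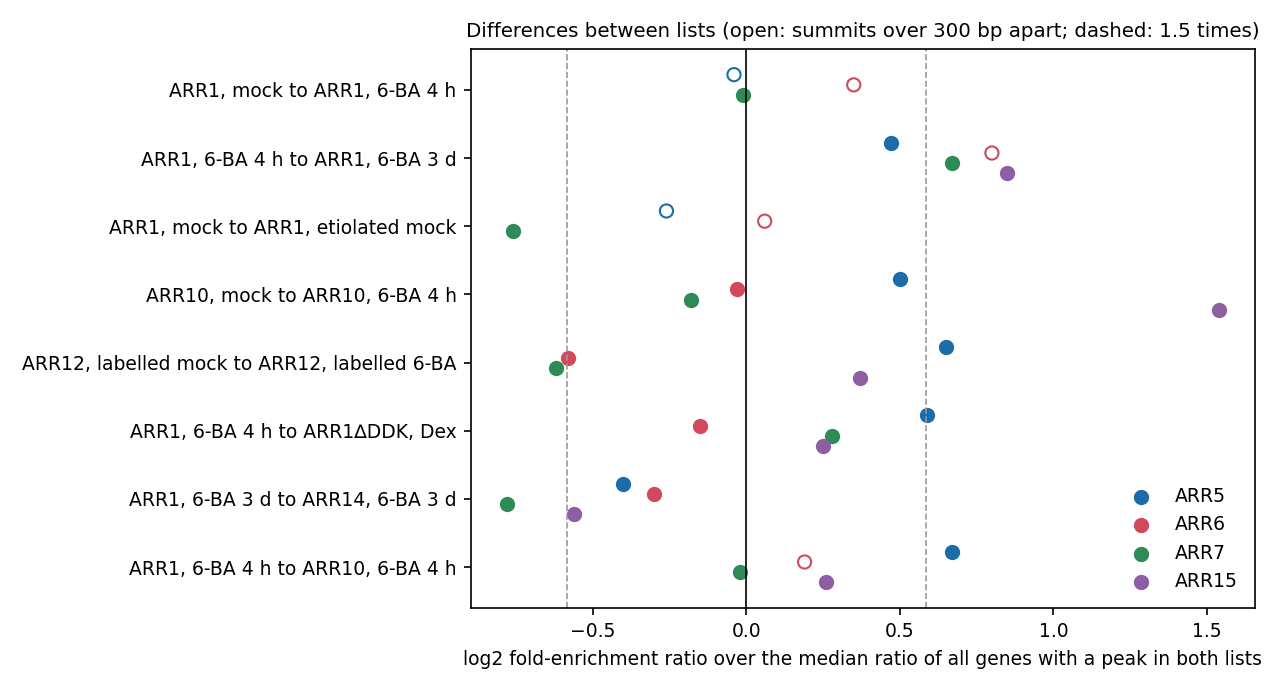
Log2 of the fold enrichment ratio between 2 lists over the median ratio of all genes with a peak in both (x axis) for the 4 genes (colours) in 8 comparisons (y axis). Open points compare summits over 300 bp apart and dashed lines mark 1.5 times the median either way. ARR15 from ARR10_m to ARR10_BA lies farthest to the right, at 1.54, and ARR7 lies beyond the left line in 3 comparisons.

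In the rest of the pathway, the receptor gene AHK4 was called in 9 of the 10 lists, AHK3 in 6 and AHK2 in 2. Among the cytokinin oxidases, which degrade the hormone, CKX5 was called in 10 lists, CKX4 and CKX6 in 6 and CKX1 in 0. The AHP phosphotransfer genes were called in 1 to 5 lists each. Of the 11 type-B genes, 5 were called in none and ARR18 in most, with 7. These counts of lists also have no share of all genes beside them. The tagged genes among these can also carry signal at their own locus. In ARR1_BA, 6 of 6 other type-A regulators, 2 of 3 receptors, 2 of 6 AHPs, 5 of 7 cytokinin oxidases and 4 of 11 type-B genes were called, against 17.5% of all genes.

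The pattern of percentiles over the 10 lists was compared with that of every other gene with a peak in at least 5 lists, by the mean absolute difference of the log10 percentile, a gene without a peak being set to 100%. The pattern most like that of ARR5 among the genes with a name was that of ARR9 (0.511), after AT5G64730 and AT1G09390 (0.505 each). For ARR15 it was the type-A regulator ARR16 and its neighbour AT2G40660, which share peaks (0.417 each), followed by CAT6, an amino acid transporter gene (0.542). For ARR6 they were AT3G11405 and its neighbour PP2CA, a phosphatase gene of abscisic acid signalling (0.322 and 0.324), and PIRL1 (0.327). For ARR7 they were the neighbours AT1G74780 and AT1G74790 (0.510 each) and the co-repressor gene TPR2 (0.551). When the percentile was used without the logarithm, none of the 3 genes named for ARR6 or for ARR7 stayed among the nearest, while 3 of 3 stayed for ARR5 and 2 of 3 for ARR15. The 4 genes were less like each other, with differences from 0.772 (ARR5 and ARR7) to 1.25 (ARR7 and ARR15), against a median of 1.25 to 1.83 between each of them and all genes compared.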

How the data were processed

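Peak lists of 10 conditions were analysed. By the submitters' processing notes and the study's methods, the authors aligned uniquely placed reads with Bowtie 0.12.7, called peaks over input with MACS2 2.0.10 and combined at least 2 biological replicates by the irreproducible discovery rate (IDR), on TAIR10. Each deposited list gives a score (10 times the −log10 p), a fold enrichment ratio over input, a −log10 p-value and a summit offset. No reads or counts are in the lists, so depth is unknown and no value has a replicate error. Positions were checked against RefSeq TAIR10.1, whose gene models were used: 1 peak of the list labelled ARR12 mock was outside the nuclear chromosomes.

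Peaks were assigned by summit within 1.5 kb, and the peak with the highest −log10 p stood for a gene. Calls used a minimum of 16. Lists were compared by fold ratio over the median ratio, with no test. The assignment, the ratio and the motif search were tested on simulated data. Members and gene lists were chosen with earlier results of these data known. Genes named besides the members were those of the pathway lists, the 3 genes most like each member in pattern, and neighbours sharing a strongest summit. Other settings tried were calls from any deposited peak or from a minimum of 30, a 1 kb limit, peaks touching the gene's surroundings, assignment to the nearest gene, other rankings, ratios, windows and motif cores, and exchanged ARR12 lists. Start summits alone and the etiolated list as the ARR1 mock were added after seeing the data. The study's supplementary gene columns were read only to check the list labels. Python 3.11.15, NumPy 2.4.6, pandas 2.3.3, Matplotlib 3.10.9 and Biopython 1.88 were used.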

Additional observations from a re-analysis of the deposited data

Results flagged for a closer look

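With the strongest peak of each list, the change from mock to 4 h of 6-BA had opposite signs in different factors at ARR5 and ARR6, on the log2 ratio over the median. At ARR5 it was -0.04 in ARR1 against 0.5 in ARR10 (a difference of 0.54) and 0.65 in ARR12 by the labels (0.69). The ARR1 value sets an intron 4 summit against a start summit, and with start summits alone it was 0.47 in ARR1 and 0.51 in ARR10, so the opposite sign was gone. At ARR6 it was 0.35 in ARR1, again between different summits, against -0.03 in ARR10 (a difference of -0.38) and -0.58 in ARR12 by the labels (-0.94). With the ARR12 lists exchanged, the ARR12 values were -0.65 at ARR5 and 0.58 at ARR6, of the same sign as the ARR1 values from the strongest peaks. Signs were compared whatever their size. ARR5 in ARR1 (0.972 times the median ratio) and ARR6 in ARR10 (0.983 times) were close to the median, so their signs carry little weight. Each factor has a single list per condition, so the differences between factors were not tested.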

How the results depend on the processing

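The number of targets among the 4 genes kept within 1.5 times its value in 49 of 52 alternative counts. In ARR1_m it went from 1 to 3 with every deposited peak and to 0 at a minimum of 30, and in the list labelled ARR12 6-BA from 4 to 2 at a minimum of 30. By the ratio of −log10 p, the genes higher numbered 2 from ARR1_m to ARR1_BA, 2 in ARR10, 2 in ARR12, 0 from ARR1_BA to ARR1∆DDK and 0 from ARR1_BA to ARR10_BA, and those lower 2 in ARR12, 1 in ARR1∆DDK and 3 from ARR1_BA3d to ARR14. With peaks of at least 16 in both lists, 0 were higher in ARR10 and ARR12, 2 lower in ARR12 and 0 lower from ARR1_m to etiolated. With protein-coding genes alone, 2 were lower in ARR12. At 2 times the median ratio, 0 genes were called in any comparison other than ARR10, where ARR15 stayed. With the lists exchanged, the ARR12 log2 values became -0.65 at ARR5 and 0.62 at ARR7. Chosen after seeing the data, start summits alone left 0 higher from ARR1_BA to ARR1∆DDK, and the etiolated list as mock gave 1 gene higher in ARR1_BA. The cause of these differences was not tested. The alternative ARR12 counts run from the label mock to the label 6-BA, and their directions turn over with the exchange. Ranked by fold enrichment, the percentile moved most at ARR5 and ARR7: ARR7 in the etiolated list went from 61.8% to 99.9%, ARR5 in ARR1_BA3d from 0.220% to 2.48% and in ARR1∆DDK from 0.240% to 2.42%, and ARR7 in ARR10_m from 0.122% to 1.58%. No paired analysis was possible because the replicates were already merged into 1 list per condition. Unknown depth and the lack of replicates limit all comparisons.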
